A study of Canis lupus familiaris with 2 samples.

Results

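The miR-23, miR-24 and miR-27 miRNAs are made from a pair of gene clusters, each of which holds 1 gene of every kind. All dog probes on the chip named miR-23, miR-24 or miR-27 were taken, whatever their letter, and this gave 5 of the 291 dog miRNAs, namely cfa-miR-23a, cfa-miR-23b, cfa-miR-24, cfa-miR-27a and cfa-miR-27b, written below without the prefix for dog. Their amounts were compared between the serum of normal and of dystrophic dogs of the CXMDJ colony, a model of Duchenne muscular dystrophy in which an X-linked mutation leads to a lack of dystrophin. All dogs were male and 2 months of age, and no group was treated. Serum of 3 normal and of 3 dystrophic dogs was mixed within the group, and each of the 2 pools was labelled with Cy5 and hybridized to 1 one-color 3D-Gene array. Each condition therefore has 1 array and 1 spot per miRNA, so no replicate error and no test between the conditions can be given.

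A miRNA guides silencing proteins to messenger RNAs that match its seed, a short stretch near the 5′ end. The a and b forms of miR-23, and likewise those of miR-27, share their seed and differ little outside it, and the mature miR-24 is the same whichever cluster it comes from. In skeletal muscle, miR-23a is known to repress the atrophy ubiquitin ligases MuRF1 and atrogin-1, miR-27b to repress Pax3 in muscle progenitors, and miR-24 to promote myoblast differentiation under the control of TGF-β. The clusters are also known for roles in endothelial cells and blood cells. In RefSeq's gene list for the dog (assembly UU_Cfam_GSD_1.0), MIR23A, MIR27A and MIR24-2 lie next to each other and in no other annotated gene, with MIR181C and MIR181D as the other miRNA genes within 50 kb. MIR23B, MIR27B and MIR24-1 lie next to each other within C1H9orf3 and FANCC, with no other miRNA gene within 50 kb. The miR-23a and miR-27a probes are called the a cluster below, and the miR-23b and miR-27b probes the b cluster. The miR-24 probe belongs to both, and the part of each cluster in its signal was not measured.

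In dystrophic serum the b cluster had the higher ratios. The signal of miR-27b was 2.23-fold that of normal serum and that of miR-23b 1.69-fold. The a cluster gave 1.45-fold for miR-27a and 0.968-fold for miR-23a, and miR-24 gave 1.07-fold. The difference between the clusters cannot depend on how the arrays are scaled to each other by 1 factor each, whereas the size of each single ratio does. It does depend on the background. The a cluster minus the b cluster was -0.72 (log2) as processed here, -0.33 without background subtraction and -0.44 with normexp. The direction turned under some scalings for miR-23a and miR-24, and under quantile normalization for miR-27a.

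A normalized signal here is the brightness of a spot above the trimmed mean of the blank spots, times a factor that brings the median over the detected dog miRNAs of the array to 25. The mean blank spot read 118 with normal serum and 116 with dystrophic serum, and a miRNA was detected above 126 and 124, respectively. Of the blank spots, 9.4% and 8.6% were above these limits too. A detection near the limit therefore does not by itself show that the miRNA was present. The scaling factors were 1.04 and 0.827. On these arrays 142 dog miRNAs were detected in both sera, 17 in normal serum alone and 46 in dystrophic serum alone. All 5 members were detected in both sera, and the scanner software marked their spots as usable at all 3 gains. Since there is 1 spot per miRNA, errors were estimated from other spots, as the spread of the blank spots combined with a coefficient of variation of 6.67% between the 8 spots of a bright control probe. The resulting spot-noise SD and 95% interval do not cover how dogs, RNA preparations or arrays differ, and the number of arrays limits the precision.

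With the processing used here, miR-27b had the largest ratio of the 5. Its spot read 161 with normal serum and 238 with dystrophic serum. The normalized signal was 45.2 ± 7.56 (spot-noise SD, 1 spot) in normal serum and 101 ± 8.60 in dystrophic serum, which gave a ratio of 2.23 with a spot-noise interval from 1.55 to 3.22. The dystrophic signal was thus higher by more than the spot noise, and as scaled here miR-27b was the 1 member above the 2-fold limit of the study, a limit that 13.4% of the 142 miRNAs detected in both sera passed. The spot on the normal array was the dimmest of the 10 member spots relative to the blank level, at 5.52 times the distance from blank mean to detection limit. On that array 8 of the 1408 blank spots, 4 of the 181 spots without a probe and 1 of the 32 negative-control spots were at least as bright, and the brightest negative-control spot read 163. On the dystrophic array none of these spots reached miR-27b. The ratio was 1.43 without background subtraction and 1.34 with local background subtraction, under the 2-fold limit and below the spot-noise interval. In these settings miR-27b was not the highest member, with 1.58 for miR-23b in the former and 2.79 for miR-24 in the latter. With normexp too, miR-23b was higher, at 1.67 against 1.62. It lies at the edge of its block beside a pair of brighter QC spots, which read 351 and 261 on the normal and 400 and 336 on the dystrophic array.

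miR-23b, its neighbor in the b cluster, read 265 and 430 before background subtraction. The normalized signal was 153 ± 12.3 with normal serum, compared with 259 ± 18.1 with dystrophic serum, and the ratio was 1.69 (1.37 to 2.09). No blank, negative-control or empty spot was as bright on either array, and the spots around it read at most 127 and 139. Before scaling, its signal over background was 2.13-fold higher with dystrophic serum, compared with 2.81-fold for miR-27b.

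miR-27a read 195 and 255. The normalized signal was 79.8 ± 8.74 with normal serum, compared with 115 ± 9.37 with dystrophic serum, and the ratio was 1.45 (1.11 to 1.89). Its spot lies in the same block of the chip as that of miR-27b. The ratio was again larger than the spot noise. It was smaller than those of miR-23b and miR-27b, but differed from neither beyond the spot noise. With quantile normalization it was 0.979.

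miR-23a, a miRNA often taken as a stable serum reference, read 391 and 449. The normalized signal was 284 ± 20.2 with normal serum, compared with 275 ± 19.1 with dystrophic serum, and the ratio was 0.968 (0.797 to 1.18), within the spot noise. Its direction turned with the scaling, from 0.796 with scaling to the miRNAs found on both arrays to 1.22 without scaling. It turned with the background too, at 1.12 without background subtraction, 1.09 with normexp and 1.24 with untrimmed blank spots. The brightness around the spot was 431 on the normal array, above that of the spot itself, and 255 on the dystrophic array. Such a surrounding brighter than the spot was found on the normal array for 8 of the 291 dog miRNAs and on the dystrophic array for 6, and its part in the ratio was not tested.

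miR-24, the product of both clusters, read 569 and 722. The normalized signal was 469 ± 32.0 with normal serum, compared with 501 ± 33.9 with dystrophic serum, and the ratio was 1.07 (0.886 to 1.29), within the spot noise. Its direction too turned with the scaling, with 0.879 when the miRNAs detected on both arrays were used and 1.35 without scaling. With the detection limit at 3 SD the ratio was 0.984. Other processing moved it farther, to 0.405 with quantile normalization and to 2.79 with local background subtraction.

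**Figure D1:**
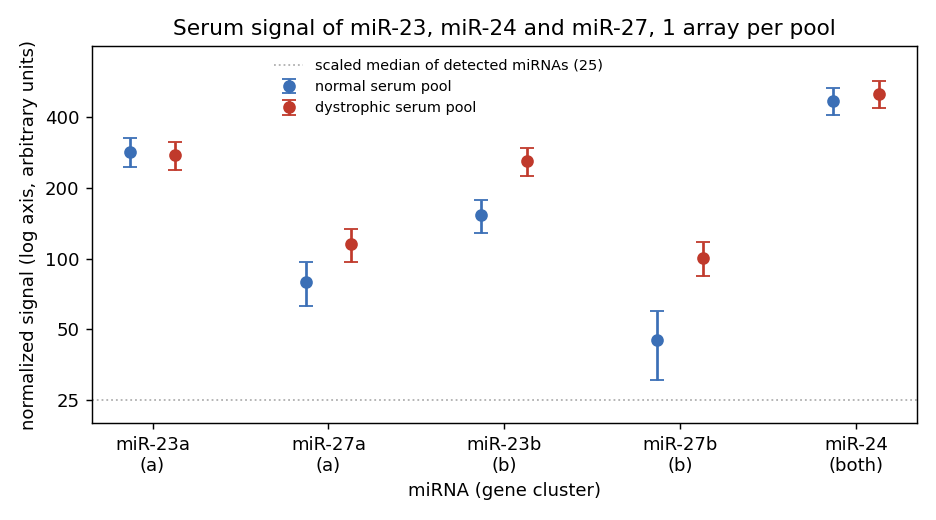
Normalized signal (log axis, arbitrary units) of the 5 members in the normal (blue) and dystrophic (red) serum pools, 1 spot each; bars are 95% spot-noise intervals and the dotted line is the scaled median of 25. The bars of the 2 pools are apart for miR-23b and miR-27b, nearly touch for miR-27a (96.9 against 97.0) and overlap for miR-23a and miR-24.

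Among the 142 miRNAs detected in both sera the median log2 ratio was 0.13, and the quartiles were -0.31 and 0.66. The median log2 ratio of the 5 members was 0.53. Counted from the median of all, miR-27b was 1.03 higher, miR-23b 0.63 higher and miR-27a 0.40 higher on the log2 scale, while miR-24 was at -0.03 and miR-23a at -0.17. By size of ratio miR-27b ranked 15, miR-23b 31, miR-27a 42, miR-24 74 and miR-23a 88. Of the 5 members 4 had a ratio above 1, beside 58.5% of all 142, and 1 had a ratio above 2, beside 13.4%. None had a ratio of 0.5 or less, beside 5.63%. A spot-noise interval wholly above 1 was found for 3 members, miR-23b, miR-27a and miR-27b, beside 20.4% of all, and an interval wholly below 1 for none, beside 9.86%. With 5 members, these shares are given as a description.

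**Figure D2:**
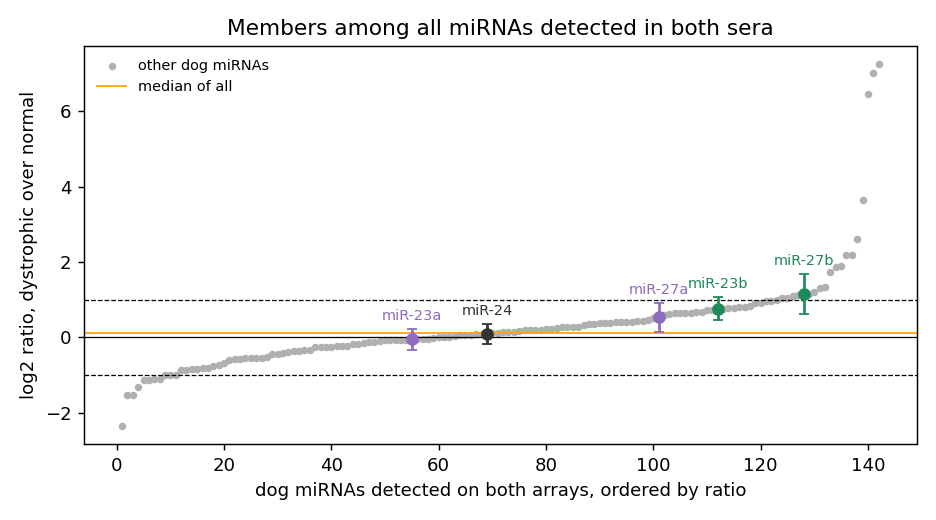
The log2 ratio of dystrophic over normal serum for the 142 miRNAs detected on both arrays, in increasing order; bars on the members are 95% spot-noise intervals, dashed lines mark 2-fold and 0.5-fold, and the orange line is the median of all, 0.13. The b cluster (green) lies at 0.76 and 1.16, the a cluster (purple) at -0.05 and 0.53, and miR-24 (black) at 0.10.

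The a and b clusters were compared through their ratios between the arrays, since the brightness of different probes cannot be set against each other. The mean log2 ratio was 0.24 (0.0044 to 0.48) for the a cluster and 0.96 (0.65 to 1.26) for the b cluster. The a cluster minus the b cluster gave -0.72 (-1.10 to -0.33) on the log2 scale, that is, the b cluster gained 1.64-fold (1.26 to 2.15) over the a cluster in dystrophic serum. The miR-23 and the miR-27 probes both went this way. For miR-23a minus miR-23b the difference was -0.81 (-1.22 to -0.39), beyond the spot noise. For miR-27a minus miR-27b it was -0.63 (-1.28 to 0.03), and this interval includes 0. As the a and b forms are near-identical, a spot can also capture the other form, and the share of each in a signal is uncertain.

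Over the 10 possible pairs of members, the spot-noise interval of the difference in log2 ratio left out 0 for 5. These were miR-27b and miR-23b each against miR-24 and against miR-23a, and miR-27a against miR-23a. The order by ratio, as processed here, ran from miR-27b through miR-23b, miR-27a and miR-24 to miR-23a, and other processing changed it. None of the 4 neighboring pairs differed beyond the spot noise. miR-27b exceeded miR-23b by 0.40 (-0.21 to 1.01), miR-23b exceeded miR-27a by 0.23 (-0.26 to 0.72), miR-27a exceeded miR-24 by 0.44 (-0.04 to 0.91) and miR-24 exceeded miR-23a by 0.14 (-0.25 to 0.53). The value of miR-24 thus lay nearer to miR-23a than to either b form. Within the a cluster, miR-27a exceeded miR-23a by 0.58 (0.10 to 1.06).

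To see how far the a and b forms of a miRNA differ on these arrays in general, all dog miRNAs with the same number and the letters a and b were taken. A count of the positions at which the forms of each pair differ was planned but not made, for lack of the mature sequences. The other pairs may therefore be less alike in sequence than the miR-23 and miR-27 pairs. Of 37 such pairs, 14 had both forms detected in both sera. The absolute difference in log2 ratio ran from 0.02 for miR-99a/b to 1.19 for miR-30a/b among the other 12 pairs, with a median of 0.56. The miR-23 pair ranked 4 and the miR-27 pair 6 of the 14, so with the processing used here neither stood outside the range of the others. The rank of the miR-23 pair moved with the processing. Without background subtraction its difference was -0.50 and with normexp and an offset of 50 it was -0.61. In each case 0 of the other 12 pairs had a larger one. The miR-27 pair was then passed by 4 and by 3 of them. In these settings the median of the other pairs was also smaller, at 0.13 and 0.20. With quantile normalization the miR-23 difference was -0.43, and 6 of the other 12 pairs had a larger one. With the blank spots of the block it was -0.74, and 4 of them did. When signals of at least 25 were required on both arrays, 4 other pairs were left, with a median of 0.38. Of these, 1 had a larger difference than the miR-23 pair, and 1 than the miR-27 pair. In the processing used here, the 3 pairs with larger differences than miR-23 were miR-30, miR-10 and miR-29. They were dimmer, with normalized signals from 9.09 to 64.9, and their intervals included 0. Beside the miR-23 pair, whose signals were 153 to 284, the miR-193 pair was the 1 pair with an interval that left out 0, and there the a form was higher by 0.51 (0.09 to 0.93). In 6 of the other 12 pairs the b form had the higher ratio and in 6 the a form.

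**Figure D3:**
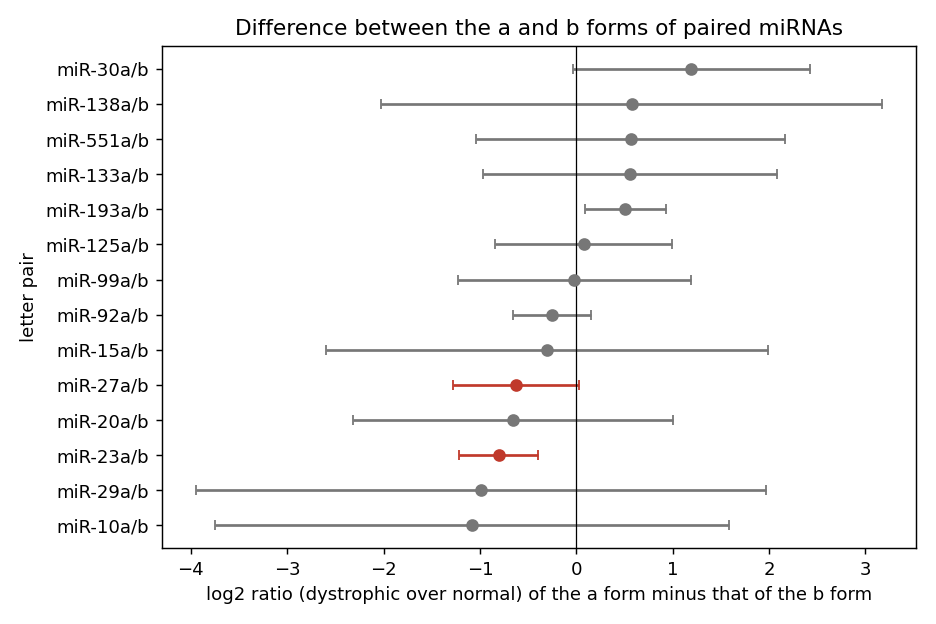
Log2 ratio (dystrophic over normal) of the a form minus that of the b form, for the 14 pairs with both forms detected on both arrays; bars are 95% spot-noise intervals. The miR-23 pair at -0.81 and the miR-27 pair at -0.63 (red) lie within the range of the other pairs (gray), which runs from -1.08 to 1.19, and have shorter bars than most.

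Replicate control probes give another measure of how unequally probes can change between the arrays. The scaled log2 ratios of 10 bright control probes, each the mean of 8 spots, ran from -0.56 to 0.82, a range of 1.38 that is larger than the difference of 0.81 between miR-23b and miR-23a. Of these, 9 lay within 0.30 of each other, and S-Probe6 lay apart with a scaled ratio of 1.76. What these probes capture is not given in the sources used here.

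The ratios of single members moved with the scaling between the arrays, which shifts all miRNAs alike. Scaling to the miRNAs found on both arrays moved the median log2 ratio of all by -0.28, and leaving out the scaling moved it by 0.33. Using the spike controls, which was added with the data already in view, moved it by 0.38. With the spike controls all 5 members were above 1, at 1.26 for miR-23a, 1.39 for miR-24, 1.88 for miR-27a, 2.20 for miR-23b and 2.90 for miR-27b. With that scaling to the miRNAs found on both arrays, miR-27b was at 1.83, under the 2-fold limit. It was above the limit in 9 of the 14 alternatives and not above it in 5, while miR-23b was above 2-fold in 3 of them. The alternatives for dim spots are counted here although they cannot change either ratio.

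**Figure D4:**
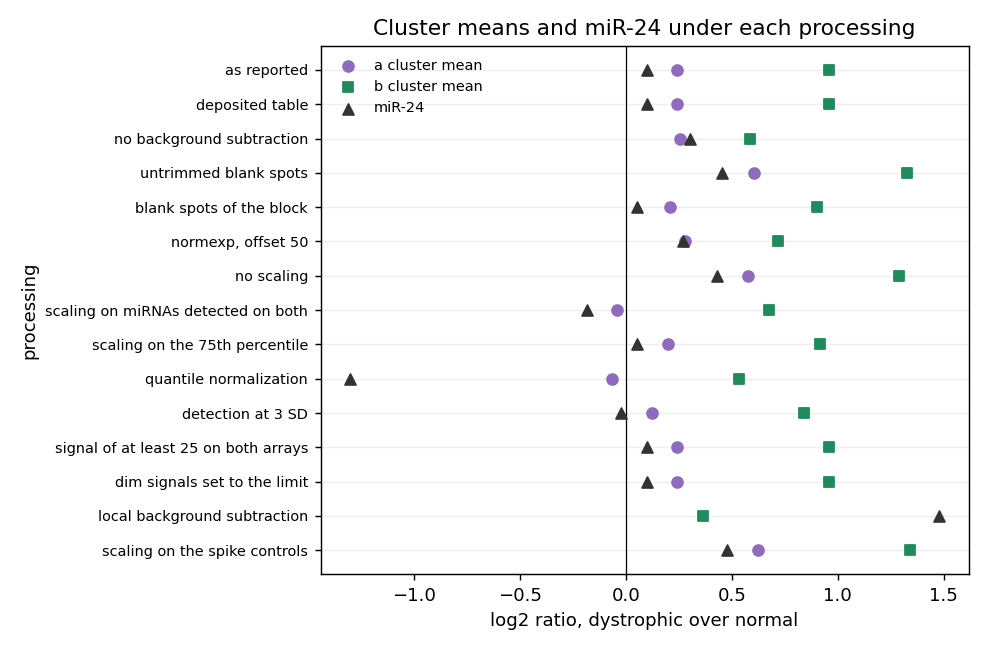
Mean log2 ratio (dystrophic over normal) of the a cluster (purple circles) and the b cluster (green squares), and the log2 ratio of miR-24 (black triangles), as reported and under 14 other ways of processing. The b cluster lies to the right of the a cluster wherever both were obtained, by 0.33 to 0.72. A scaling by 1 factor per array cannot change this distance. miR-24 moves farthest with quantile normalization and local background subtraction.

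Serum miRNAs come from many tissues, and more releasing cells cannot be told apart from more RNA released per cell. Markers of several sources, chosen from general knowledge, differed between the pools. Of the 8 muscle miRNAs 4 were detected in both sera, all with a ratio above 1. The summed signal of those detected was 80.0 in normal and 6616 in dystrophic serum. Most of the dystrophic sum was miR-133a, miR-133b and miR-133c, with 1934, 2426 and 2097, and how far these probes capture the same RNA was not tested. In normal serum miR-133a, miR-133c and miR-206 were dim, at 1.84, 1.68 and 1.35 times the distance from blank mean to detection limit. miR-499 was detected in normal serum alone, with 12.3, and miR-1 in dystrophic serum alone, with 20.6, while miR-208a and miR-208b were detected in neither. Of the 3 red-cell miRNAs on the chip, miR-451 alone was detected in both, and the summed signal of those detected was 1276 in normal and 261 in dystrophic serum, nearly all of it miR-451. miR-185 passed the detection limit in dystrophic serum alone, with 11.4 or 1.67 times that distance, and miR-144 in neither. Of the 3 endothelial miRNAs miR-221 was detected in both, with 126 and 70.2, and miR-126 in neither, with sums of 141 and 70.2 for the list. The 5 leukocyte and platelet miRNAs had sums of 306 and 207, and among the 3 detected in both miR-223 went from 206 to 113 and miR-150 from 87.9 to 65.4, whereas miR-142 went from 12.8 to 28.7. The summed signals of the red-cell, endothelial and leukocyte lists were thus lower in dystrophic serum, where those of miR-23b, miR-27a and miR-27b were higher. The part of these sources in the member ratios was not tested.

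miR-23a serves in clinical work as the partner of the red-cell miRNA miR-451 in an index of hemolysis. The normalized signal of miR-451 was 1276 in normal and 250 in dystrophic serum. Within an array, log2 of miR-451 over miR-23a was 2.17 with normal serum and -0.14 with dystrophic serum. These levels set different probes against each other and are not values of that index. The change between the arrays was -2.30 (-2.70 to -1.91), which is free of the scaling factor of each array. The same change was -2.45 against miR-24, -2.88 against miR-27a, -3.11 against miR-23b and -3.51 against miR-27b, so the choice of member alters its size by 1.20 on the log2 scale. Without background subtraction the change of miR-451 against miR-23a was -1.88. The muscle miRNA miR-133b, the brightest of its list in normal serum, changed by 6.49 (5.69 to 7.30) against miR-23a and by 5.29 (4.37 to 6.21) against miR-27b. The change of miR-133b against miR-23a was 4.20 without background subtraction and 4.85 with normexp, below its spot-noise interval in each case.

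The miRNAs nearest to the median ratio of the members, which is that of miR-27a, were miR-210, miR-1306 and miR-326. Their ratios were 1.42 for miR-210, the hypoxia-induced miRNA, 1.51 for miR-1306 and 1.38 for miR-326. Their log2 ratios were within 0.03, 0.06 and 0.07 of that median, a likeness that rests on 2 arrays. The members themselves ran from -0.05 to 1.16, so these miRNAs are not near all of them. miR-210 was also dim, with normalized signals of 17.9 and 25.4. Of the miRNAs that lie beside the a cluster in the genome, miR-181c was detected in neither serum. miR-181d passed the detection limit in the dystrophic pool only, at a normalized signal of 9.22. That is 1.35 times the distance from blank mean to detection limit.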

How the data were processed

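Serum miRNAs were measured on 2 one-color arrays, 1 for each pool of 3 dogs, and grouped by their labels. The authors deposited the median intensity of each spot at 635 nm without normalization, combined from 3 scanner gains, and a table of background-subtracted, globally normalized intensity values made with 3D-Gene Extraction, whose settings are not given in the sources used here. From the spot intensity, the mean of 1408 blank spots, trimmed by 5% (71 spots) at each end, was subtracted. The detection limit was that mean plus 2 SD, and the median of the detected miRNAs was scaled to 25. These values differed from the deposited table by at most 0.0498, its rounding.

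The spot-noise interval of a log2 ratio combines the central 95% of the blank spots with the root mean square coefficient of variation of 10 bright control probes (at least 5 times the limit above the blank mean), by error propagation. It leaves out the error of the scaling factor. No p-value was computed. The steps were tested on simulated data with the same noise as the interval assumes, without scaling and with dim signals raised. Scaling and signals near the detection limit were therefore not covered. The members, marker lists and comparisons were chosen with earlier results of these data known. Named miRNAs were the members, the marker lists, the letter pairs at the ends of their range and the 3 miRNAs nearest to the median member ratio. Others named were chosen after their values were seen. Alternatives were run for the origin of the values, the background, the scaling, the detection limit and dim spots. RefSeq was used for names and neighbors alone.

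Python 3.11.15, numpy 2.4.6, pandas 2.3.3 and matplotlib 3.10.9 were used, with limma 3.58.1 in R 4.3.3 for normexp.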

Additional observations from a re-analysis of the deposited data

How the results depend on the processing

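Of the 14 alternatives, local background subtraction and scaling to the spike controls were chosen after the data were seen. Why a value changed was not tested, except where it is named. The a cluster minus the b cluster ran from -0.72 to -0.33 in the 13 alternatives that gave it. Many of these cannot change it, namely 1 scaling factor per array, the detection limit and the handling of dim spots. It was -0.33 without background subtraction, -0.44 with normexp and -0.60 with quantile normalization. Blank spots of the block gave -0.69 and untrimmed blank spots -0.72. Local background subtraction gave none, as the spot of miR-23a was below its surroundings on the normal array. The differences of the single pairs are fixed in the same way. For miR-23a minus miR-23b they ran from -0.81 to -0.43 and for miR-27a minus miR-27b from -0.77 to -0.17. In every alternative they were within the spot-noise interval.

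Without scaling, the ratios of miR-23a, miR-23b and miR-24 were 1.22, 2.13 and 1.35, the a and b cluster means 0.57 and 1.29 (log2) and the number of members above 2-fold 2. Untrimmed blank spots gave 1.24, 2.17, 1.37, 0.60, 1.33 and 2, and the spike controls 1.26, 2.20, 1.39, 0.62, 1.34 and 2. Scaling to the miRNAs found on both arrays gave 0.796 for miR-23a, 0.879 for miR-24, -0.040 for the a cluster and 0 members above 2-fold. Quantile normalization gave 1.26 for miR-23b, 0.405 for miR-24, 0.979 for miR-27a, cluster means of -0.066 and 0.53, 0 members above 2-fold and 1 at 0.5-fold or less, and -2.88 for miR-451 over miR-23a. It replaces a signal by the mean of both arrays at its rank, and miR-24 moved from rank 4 to rank 6 among the dog miRNAs. Without background subtraction miR-27b was at 1.43, the b cluster at 0.59, no member (0) was above 2-fold, the change of miR-451 over miR-23a was -1.88 and the median difference of the other letter pairs was 0.13. In that setting miR-24 was at 1.24 and miR-23a at 1.12. Normexp with an offset of 50 gave 0 members above 2-fold. The change of miR-133b over miR-23a, 6.49, was 4.20 without background subtraction and 4.85 with normexp. Local background subtraction gave 1.23 for miR-23b, 2.79 for miR-24, 1.03 for miR-27a, 1.34 for miR-27b and 0.36 for the b cluster.

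No paired analysis was possible because there is 1 array for each serum, so leaving out a replicate was not run either. Signal over background limits miR-27b most.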
